A study of Mus musculus with 24 samples.

Results

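Gene expression in the mouse right ventricle 1 month after PSPI, surgery that loads this chamber with both pressure and volume, was set against expression after sham surgery. The comparison holds 15 of the 24 samples of the series: the 5 whose titles give PSPI and month 1, and all 10 titled sham, chosen by title alone. Every sample of the comparison carries the strain label M/FVB/10-12 and the tissue labels heart and right ventricle, and no field of their own gives genotype, age, sex or a drug. What the letter M and the numbers in the strain label stand for is not stated. The sham titles give no month, so time after the sham operation is not known. The labels do not say whether each sample is a different animal. The p-values therefore rest on sample-to-sample spread alone, part of which may be technical. Total RNA was labelled with Cy3 and hybridised to 1-colour Agilent arrays, 1 array per sample.

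The right ventricle is a thin-walled chamber that pumps against the low resistance of the lung circulation, and it answers a lasting load by thickening, by dilating or both. A loaded ventricle is known to return to a set of genes used before birth, among them beta myosin (Myh7), skeletal actin (Acta1) and the natriuretic peptides (Nppa, Nppb), and to lay down collagen and other matrix. Macrophages, neutrophils and antigen-presenting cells are also known to take part in the remodelling of loaded hearts, through chemokines, complement, interferon-induced genes and MHC proteins, the molecules that show peptides to T cells.

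A level below is a log2 signal after subtraction of the array's own 75th percentile, so that a level of 0 is that of a bright probe and dim probes have negative levels. Of 55681 probes, 36.2% to 51.2% were well above background on each of the 15 arrays, and the number of arrays, not a read depth, limits the precision. After the filter on dim probes 12433 genes were tested with limma in 1 model of all 24 arrays, with Benjamini-Hochberg adjustment over those genes and a threshold of 0.05. Values after ± are standard errors of a log2 difference unless called SD, and all tests were two-sided.

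The arrays of both groups were mixed in a way that the labels do not give. The first principal component of the 15 arrays held 34.7% of the variance, and along it Sham 6, 7, 8 and 9 lay with month 1 samples 1 and 5 (19.8 to 37.6), whereas the other 6 shams lay with month 1 samples 2, 3 and 4 (-23.2 to -17.1). Myh7 parted the arrays in the same way. Its level was 1.72, 2.16, 1.92, 1.94, 1.62, 4.73, 5.91, 5.18, 4.95 and 2.08 in Sham 1 to 10, and 5.75, 2.49, 2.52, 2.03 and 5.13 in month 1 samples 1 to 5. So 4 arrays labelled sham had the beta myosin level of the highest month 1 arrays, and 3 month 1 arrays had a level close to that of the low shams. Sham 3, 4 and 10 also stood apart through the atrial light chain Myl7, at 3.52, 3.48 and 3.53, against -7.89 to -3.59 in the other shams and -3.84 to 2.19 in month 1.

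**Figure D1:**
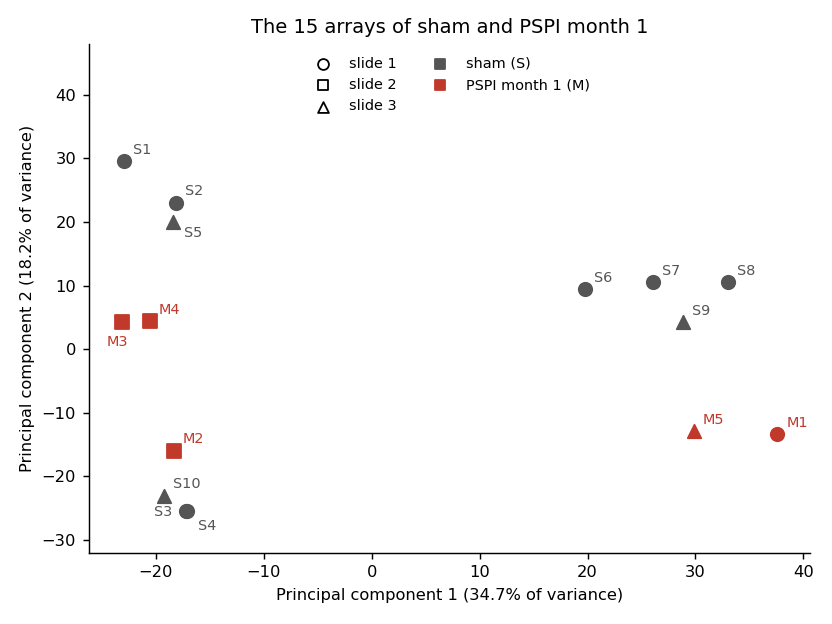
Principal components 1 and 2 of the 15 arrays over the genes tested, 1 point per array, with the share of variance on each axis; colours give the group (S sham, M PSPI month 1, with the replicate number) and shapes the slide. On the horizontal axis Sham 6 to 9 and month 1 samples 1 and 5 lie between 19.8 and 37.6 and the remaining 9 arrays between -23.2 and -17.1.

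Some arrays of the same group nearly coincided. Over the 500 most variable genes, month 1 samples 1 and 5 differed by a median of 0.23 (log2), although they lay on different slides. Sham 3, 4 and 10, Sham 1 and 5, and Sham 7 and 9 also differed by less than 0.30, while the next pair of these 15 arrays, Sham 8 and 9, differed by 0.32. The labels name no repeated sample, so all arrays were kept, and results with each such set averaged to 1 sample (6 sham and 4 month 1 samples) are given where they matter. The slides were unevenly filled: month 1 sample 1 shared slide 1 with 7 shams, month 1 sample 5 shared slide 3 with 3 shams, and month 1 samples 2, 3 and 4 were on slide 2 without any sham. Month 1 samples 2 to 4 therefore differ from every sham in slide as well as in surgery, and these cannot be told apart for them. On month 1 sample 1, 43 probes in 1 corner of the array (rows 1 to 45, columns 1 to 8) were dark although they were well above background on all of the other 23 arrays, and no gene named here has its probe in that corner.

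No single gene passed the test between month 1 and sham: 0 of 12433 genes (0%) had a limma adjusted p under 0.05, and the smallest was 0.0619. At an unadjusted p under 0.05 there were 1508 genes (12.1%), of which 866 were higher in month 1 (6.97%) and 642 lower (5.16%). With each array's percentile taken over all probes that split was 596 higher and 797 lower. An exact permutation test over the 3003 ways to choose 5 of the 15 arrays called 0 genes after adjustment (smallest adjusted p 0.0796, 1691 genes at p under 0.05). Its smallest possible p is 0.000333, which 52 genes reached, and that floor sets the smallest adjusted p. No gene could pass unless more genes reached the floor, so its count of 0 adds little. The difference was above 0 for 6583 genes (52.9%). All 5 month 1 arrays lay above all 10 shams for 48 genes (0.386%) and below them for 34 (0.273%). The count of calls varied widely with the arrays and their weight. It was 565 (339 higher, 226 lower) when limma gave less weight to arrays that lay far from their group mean. That weight is drawn from the levels themselves and is not a measure of scan or RNA quality. The count was 42 without Sham 8, 5 without month 1 sample 5, 1 without month 1 sample 1, and 1 without month 1 sample 2. It was 0 without any other single array. Without month 1 samples 1 and 5 it was 59 and without Sham 3, 4 and 10 it was 55, with 5 genes shared between these 2 sets of calls (8.47% of the first and 9.09% of the second). Of the 59 genes called without month 1 samples 1 and 5, 55 were also called with array weights (93.2%). Within slide 1, where month 1 sample 1 faced 7 shams, 3 genes were called higher and 83 lower, and 64 of the 83 had their probe in the dark corner. Within slide 3, 1 gene was called, and with slide as a block none was (smallest adjusted p 0.254). With close arrays averaged the count was 0 and the smallest adjusted p 0.314.

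The probes' base composition moved with the differences: the median GC content of the probe was 41.7% over all genes tested, 45% among genes higher at an unadjusted p under 0.05 and 38.3% among those lower. Its part in the results was not tested beyond a correction per array and GC class, under which 0 genes passed and the smallest limma adjusted p was 0.0525.

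Ccl8 and Emc10 stood first by p. Ccl8, a chemokine that attracts monocytes and eosinophils (probe on chromosome 11, 81930108 to 81930167, mouse build mm9), had sham levels from -3.92 to -1.92 with a median of -2.78, and month 1 levels of -0.995, -1.97, -1.30, -0.75 and -0.89. Only month 1 sample 2 lay inside the sham range, just below the highest sham. The difference was 1.47 ± 0.26, or 2.76-fold (limma adjusted p = 0.0619). It was 1.68 within slide 1, 1.69 within slide 3 and 1.62 with slide as a block, none with an adjusted p under 0.05. Each within-slide value here and below rests on 1 month 1 array, sample 1 or sample 5, and these nearly coincide. Emc10, a subunit of the complex that inserts membrane proteins in the endoplasmic reticulum (chromosome 7, 51747326 to 51747385), had sham levels from -4.82 to -4.01, median -4.54, and month 1 levels of -4.07, -3.59, -3.46, -3.33 and -4.17. Here month 1 samples 1 and 5 lay within the sham range, below Sham 8, and the 3 arrays of slide 2 lay above every sham. The difference was 0.78 ± 0.13 (adjusted p = 0.0619), 0.36 within slide 1 and 0.49 within slide 3.

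Oasl2, an interferon-induced member of the oligoadenylate synthetase family (chromosome 5, 115362168 to 115362227), was among the genes with the widest gap between the groups. Its shams lay between -3.73 and -3.04 with a median of -3.35, and its month 1 arrays at -2.55, -2.71, -2.70, -2.45 and -2.48. No month 1 array overlapped with a sham, and arrays 1 and 5 were no different from 2, 3 and 4. The difference was 0.82 ± 0.17 (1.76-fold, adjusted p = 0.0651), and 0.82 within slide 1 and 0.98 within slide 3. Cox10, an enzyme on the path to the heme A of cytochrome c oxidase, was at -3.92, -4.32, -4.21, -4.35 and -4.35 against -5.26 to -4.62, a difference of 0.60 ± 0.12 (adjusted p = 0.0651). Naglu, a lysosomal enzyme that degrades heparan sulfate, and Tbc1d17, a protein of a family that switches off Rab GTPases, also had all month 1 arrays above all shams, by 0.43 ± 0.09 (adjusted p = 0.0746) and 0.41 ± 0.08 (adjusted p = 0.0651). Within slides 1 and 3 Naglu differed by 0.56 and 0.28, and Tbc1d17 by 0.28 and 0.19. With the GC correction they differed by 0.36 and 0.28. Grina, a membrane protein related to the glutamate receptor-associated family, followed with 0.38 ± 0.08, and Ttc30a2, of the intraflagellar transport machinery of cilia, with 0.60 ± 0.12 (adjusted p = 0.0651 for both), although the lowest Ttc30a2 value of month 1 (-4.50) lay under the highest sham (-4.29). Within slides 1 and 3 Cox10 differed by 0.96 and 0.38, Grina by 0.47 and 0.32 and Ttc30a2 by 0.29 and 0.30.

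Among lower genes Rab30, a small GTPase of the Golgi (chromosome 7, 99985062 to 99985121), led. Its shams lay between -3.62 and -3.18, median -3.35, and its month 1 arrays at -3.87, -4.14, -4.59, -4.22 and -3.71, all below every sham. The difference was -0.73 ± 0.14, to 0.603 of the sham level (adjusted p = 0.0651), and -0.42 within slide 1 and -0.50 within slide 3. A second Rab30 probe gave -0.30. Larp1 and Rps6kb1 belong to the mTOR arm of translation control, the first as a binder of messages for ribosomal proteins and the second as S6 kinase 1. Larp1 was at 1.29, 1.38, 1.15, 1.19 and 1.46 in month 1 against 1.47 to 1.80 in sham (-0.34 ± 0.07, adjusted p = 0.0651). Rps6kb1 was at 0.99, 0.81, 0.77, 0.91 and 1.02 against 1.08 to 1.38 (-0.31 ± 0.07, adjusted p = 0.0951). Second probes gave -0.04 for Larp1 and -0.05 for Rps6kb1, so these differences rest on 1 probe each. Top1, the topoisomerase that relaxes DNA during transcription, differed by -0.46 ± 0.10 (adjusted p = 0.0904), likewise without overlap. Within slides 1 and 3 Top1 differed by -0.53 and -0.16, Larp1 by -0.35 and -0.14 and Rps6kb1 by -0.22 and -0.18. Il2ra, the alpha chain of the interleukin 2 receptor, was well above background on 10 of 10 shams (-5.78 to -5.13) and on 1 of 5 month 1 arrays (-6.40 to -6.14). Its groups did not overlap, but its values are near background and the adjusted p was 0.267.

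**Figure D2:**
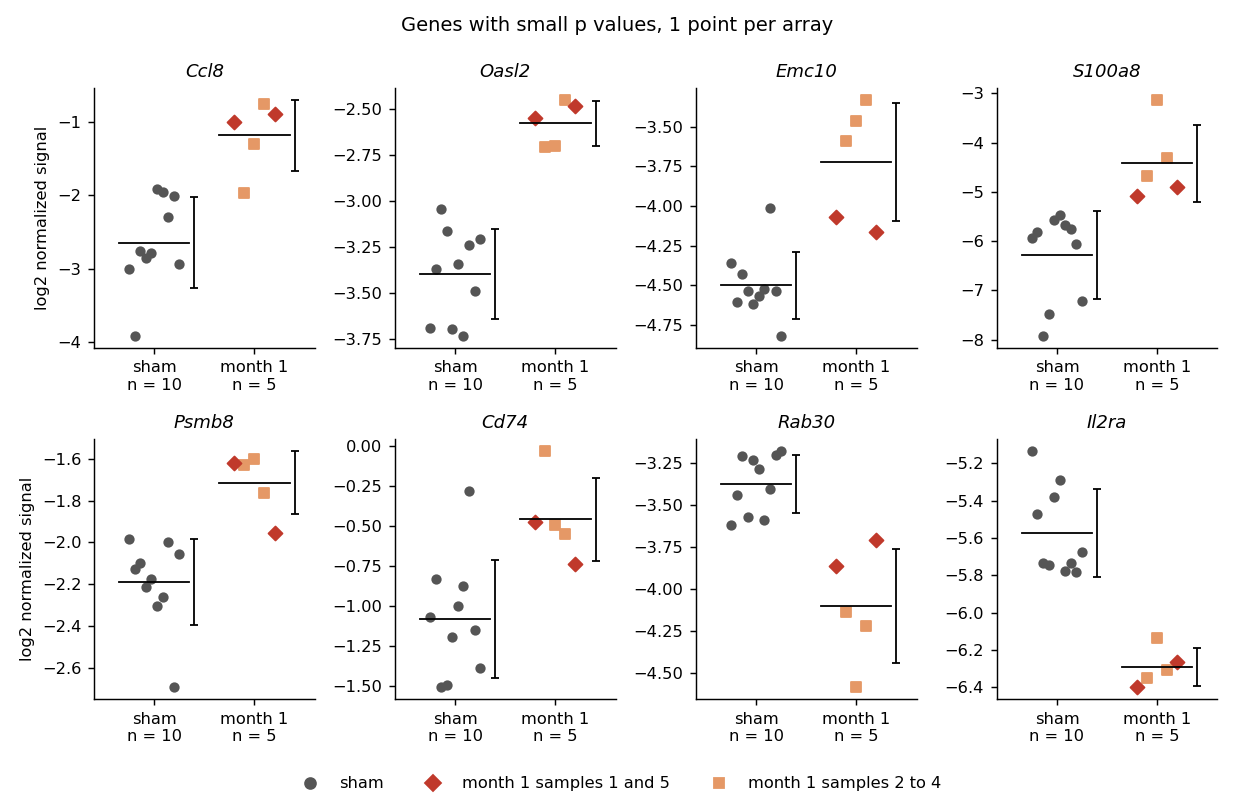
Log2 normalized signal of 8 genes with small p or a gap between the groups, 1 point per array; lines are group means and bars beside them 1 SD (10 shams, 5 month 1 arrays). Oasl2, S100a8, Psmb8, Rab30 and Il2ra have no overlap between the groups, while for Emc10 month 1 samples 1 and 5 lie nearer to the shams than samples 2 to 4.

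Several lists of immune genes had medians that kept 1 sign over the settings tried. Over all genes tested the median difference was 0.01. Of 47 lists, 12 had a median of the same sign in all 39 alternative settings: MHC class I, MHC class II, complement, macrophage, neutrophil, chemokine, interferon, lysosome, antioxidant, B cell and platelet genes on the higher side and endoplasmic reticulum stress genes on the lower. Other immune lists did not: the median of T cell and NK cell markers was 0.13 but -0.33 within slide 3, and that of mast cell and eosinophil markers was -0.02, but 0.27 without month 1 samples 2 to 4. The B cell median rests on 2 of 14 members, of which 1 was bright on all arrays. At an unadjusted p under 0.05 were 0 of 2 (12.1% over all genes). The antioxidant median was 0.04, and 0.0087 at its lowest over the 39 settings. These settings reuse most of the same arrays and are not independent of each other. The filter on dim probes admits genes that are bright in PSPI groups alone, so counts and medians over a list describe the members that passed and are no support for a rise. Among members bright on all 24 arrays the medians were 0.29 for class I, 0.49 for class II, 0.37 for complement, 0.22 for macrophage, 0.19 for interferon and 0.12 for chemokine genes. No member of any of them passed the adjusted threshold, so every value that follows describes a gene that did not pass.

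Of 18 neutrophil markers 7 passed the filter, and 4 of these, S100a8, S100a9, Chil1 and Fpr1, were not well above background on all shams and entered through PSPI groups. These 4 were higher at an unadjusted p under 0.05 (6.97% over all genes), and the median over the 7 was 0.87. The other 3 markers, bright on all arrays and named after their values were seen, had a median of 0.12: Csf3r, the receptor for the neutrophil growth factor G-CSF, differed by 0.12 ± 0.19, Lcn2, an iron-scavenging protein, by 0.18 ± 0.38 and Elane, neutrophil elastase, by 0.03 ± 0.28. S100a8, a subunit of the calcium-binding protein calprotectin of neutrophils (chromosome 3, 90473778 to 90473837), was well above background on 5 of 10 shams and on 5 of 5 month 1 arrays. Its shams lay between -7.92 and -5.47, median -5.87, and its month 1 arrays at -5.09, -4.68, -3.13, -4.30 and -4.91, all above every sham. The difference was 1.87 ± 0.43, or 3.65-fold (adjusted p = 0.107), and 1.20 within slide 1 and 1.37 within slide 3. Sham 3, 4 and 10 were the lowest shams for S100a8, at -7.92, -7.48 and -7.21, and without them its difference was 1.33. S100a9, its partner, differed by 1.84 ± 0.65 (adjusted p = 0.240), but the lowest sham (Sham 10, at -7.97) lay 2.84 below the next, and without Sham 3, 4 and 10 the difference was 0.98. Chil1, a chitinase-like protein of activated myeloid cells, was at -3.96 and -3.94 in month 1 samples 1 and 5 and at -6.00 to -4.90 in samples 2 to 4, while Sham 7 and 9 were at -4.11 and -4.04 (1.15 ± 0.47, adjusted p = 0.308). Fpr1, the receptor for formylated bacterial peptides, differed by 0.87 ± 0.42 (adjusted p = 0.412).

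Macrophage markers were higher in 18 of 21 measured members (52.9% over all genes), 6 of 21 at an unadjusted p under 0.05 (6.97%). Their median difference was 0.23. Lyz2, the lysozyme of macrophages, was at -2.22, -1.96, -1.35, -1.95 and -2.18 in month 1 against -3.61 to -2.07 in sham (0.70 ± 0.24, adjusted p = 0.217), and its near copy Lyz1, which a probe may not tell from it, differed by 0.46 ± 0.16. Mpeg1, a pore-forming protein of phagocytes, differed by 0.43 ± 0.16 (adjusted p = 0.256). The mean deviation of the listed markers from their mean over the 15 arrays ran from 0.14 to 0.22 in the 5 month 1 arrays, but it was 0.24, 0.21 and 0.17 in Sham 3, 4 and 10 and from -0.42 to -0.09 in the other shams. Macrophage markers thus overlapped with the shams that carry atrial markers and with no other sham. Without Sham 3, 4 and 10 the median difference of the list was 0.36. Lyz1 and, of the complement list, C1qa then passed (limma adjusted p = 0.0452 and 0.0274). Sham 10 and 4 were the highest shams for Lyz1, and Sham 3 and 4 for C1qa. Leaving them out favours a pass, so these calls are no support. Here, as in any tissue RNA, more cells of a type and more RNA per cell cannot be told apart.

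Complement genes were higher in 16 of 18 measured members (52.9% over all genes), 9 of 18 at an unadjusted p under 0.05 (6.97%). Their median difference was 0.40. C1qa, a chain of the C1q complex that macrophages make, was at -0.43, -0.33, -0.39, -0.06 and -0.61 in month 1 against -1.45 to -0.40 in sham (0.53 ± 0.15, adjusted p = 0.155). With the GC correction C1qa differed by 0.41. C4b, the complement component 4 of mouse, was at 1.49, 0.10, 1.37, 0.48 and 1.28 against -1.62 to 0.69, median 0.09, a difference of 1.25 ± 0.34 (2.38-fold, adjusted p = 0.148). It was 1.89 within slide 1 and 1.37 within slide 3. Cfb, factor B of the alternative pathway, differed by 1.07 ± 0.31 (adjusted p = 0.161), C3, the central component of all pathways, by 0.58 ± 0.18 (adjusted p = 0.185) and C1s1, the protease of C1, by 0.44 ± 0.12 (adjusted p = 0.139). C3 was at 2.90, 3.21, 3.70, 3.62 and 2.85, so that samples 1 and 5 lay inside the sham range of 1.99 to 3.11 and samples 2 to 4 above it. Its difference was 0.01 within slide 3 and 0.30 within slide 1. The mean deviation of the complement list was 0.16 to 0.44 in month 1 and also 0.41, 0.33 and 0.41 in Sham 3, 4 and 10, so the groups overlapped there.

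Chemokines and cytokines beside Ccl8 differed less. The list had 18 of 23 members higher (52.9% over all genes) and 4 of 23 at an unadjusted p under 0.05 (6.97%). Its median was 0.19. The list's mean deviation was 0.10, 0.31, 0.23, 0.13 and 0.20 in month 1. It was also 0.20, 0.19 and 0.23 in Sham 3, 4 and 10, so the groups overlapped there. Serpina3n, a protease inhibitor of the acute phase, was at -2.13, -2.13, -2.25, -1.19 and -2.02 against -3.04 to -2.21 (0.67 ± 0.24, adjusted p = 0.252). Ccl5, which recruits T cells, was at -2.21 in month 1 sample 2 and at -3.92 to -3.09 in the others, so the difference of 0.62 ± 0.23 (adjusted p = 0.272) rested on few arrays and was -0.02 within slide 1. Icam1, the adhesion molecule on which leukocytes cross vessel walls, differed by 0.69 ± 0.32 (adjusted p = 0.382), with Sham 1 at -7.78, 1.28 below the next sham.

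Genes of MHC class I and of peptide loading were higher in 13 of 16 measured members (52.9% over all genes). At an unadjusted p under 0.05 were 9 of 16 (6.97% over all genes), and the median was 0.29. B2m, the light chain shared by all class I molecules (chromosome 2, 121978401 to 121978460), was at 2.15, 2.04, 1.84, 1.77 and 2.18 in month 1 against 1.35 to 2.02 in sham, median 1.55. Month 1 samples 1, 2 and 5 lay above every sham and samples 3 and 4 below Sham 8 (0.40 ± 0.11, adjusted p = 0.139). Psmb8, a catalytic subunit of the immunoproteasome, was at -1.62, -1.63, -1.60, -1.76 and -1.96 against -2.69 to -1.98, with no overlap but a gap of only 0.03 (0.48 ± 0.14, adjusted p = 0.173). With the GC correction Psmb8 differed by 0.35 and B2m by 0.42. Of the heavy chains, H2-D1 differed by 0.38 ± 0.13 (adjusted p = 0.228), and H2-T23, named after its values were seen because its groups did not overlap either, by 0.32 ± 0.13 (adjusted p = 0.292). Tapbp, the chaperone tapasin, differed by 0.33 ± 0.10 (adjusted p = 0.189). Heavy-chain genes are near copies of each other, so a probe may read several. The list's mean deviation was 0.18, 0.27, 0.20, 0.03 and 0.19 in month 1 and at most 0.05 in any sham. Its median difference was 0.31 within slide 1, 0.34 within slide 3, 0.38 with slide as a block, 0.28 without month 1 samples 1 and 5 and 0.32 without samples 2 to 4.

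MHC class II genes, which mark antigen-presenting cells, were higher in 8 of 8 measured members (52.9% over all genes). At an unadjusted p under 0.05 were 5 of 8 (6.97% over all genes), and the median was 0.49. H2-Aa was at -1.93, -0.86, -1.45, -1.36 and -2.14 in month 1 against -2.57 to -1.34 in sham. Sham 8 was the highest sham, 0.71 above the next, and only month 1 sample 2 lay above it (0.71 ± 0.25, adjusted p = 0.239). Cd74, the invariant chain that guides class II molecules, was at -0.48, -0.03, -0.49, -0.55 and -0.74 against -1.51 to -0.28 (0.62 ± 0.23, adjusted p = 0.260). H2-DMa, which helps load peptides, differed by 0.62 ± 0.21 (adjusted p = 0.210), and H2-Ab1 by 0.56 ± 0.21 (adjusted p = 0.254). With the GC correction H2-Aa differed by 0.69, Cd74 by 0.50, H2-DMa by 0.49 and H2-Ab1 by 0.57. The median of the list was 0.26 within slide 1, 0.35 within slide 3 and 0.64 without month 1 samples 1 and 5. The list's mean deviation was 0.21, 0.73, 0.19, 0.29 and 0.10 in month 1. It was 0.41 in Sham 8 and -0.38 to -0.03 in the other shams, so only month 1 sample 2 lay above Sham 8.

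Interferon-response genes were higher in 32 of 37 measured members (52.9% over all genes), 9 of 37 at an unadjusted p under 0.05 (6.97%). Their median difference was 0.22. This list did depend on which month 1 arrays were read: the median was 0.39 without samples 2 to 4 and 0.06 without samples 1 and 5. Ifit1, an RNA-binding protein of antiviral defence (chromosome 19, 34723796 to 34723855), was at -4.15, -5.78, -5.12, -5.39 and -4.48 in month 1, with samples 1, 3 and 5 above every sham and samples 2 and 4 within the sham range of -6.35 to -5.19 (0.74 ± 0.21, adjusted p = 0.161). Ifitm3, a membrane protein that blocks virus entry, was at 0.82, 0.53, 0.55, 0.42 and 0.78 against 0.13 to 0.58 (0.36 ± 0.10, adjusted p = 0.150). Zbp1, a sensor of Z-form nucleic acid, was at -5.65, -6.11, -5.40, -5.41 and -5.62 against -7.82 to -5.97 (1.13 ± 0.24, adjusted p = 0.0651), but it was well above background on only 1 of 10 shams and 4 of 5 month 1 arrays.

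Since Ifit1 and B2m are read here as interferon-linked genes, the 250 bases upstream of each start site are shown with the core of the interferon-stimulated response element in capitals (GAAA, any 2 bases, GAAA, or on the other strand TTTC, any 2 bases, TTTC). Sequences are those of RefSeq on GRCm38.p6, plus strand, for Ifit1 at chr19:34640639-34640888 and for B2m at chr2:122147437-122147686.
Ifit1: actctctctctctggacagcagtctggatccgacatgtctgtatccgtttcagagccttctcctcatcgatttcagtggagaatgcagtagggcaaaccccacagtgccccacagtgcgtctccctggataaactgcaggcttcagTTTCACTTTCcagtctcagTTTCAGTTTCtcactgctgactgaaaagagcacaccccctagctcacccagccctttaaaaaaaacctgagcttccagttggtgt
B2m: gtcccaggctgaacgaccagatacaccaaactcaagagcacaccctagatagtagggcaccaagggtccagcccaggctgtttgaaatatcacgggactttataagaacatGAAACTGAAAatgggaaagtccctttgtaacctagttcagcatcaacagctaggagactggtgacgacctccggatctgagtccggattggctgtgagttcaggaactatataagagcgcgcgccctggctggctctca
Ifit1 held 2 matches, 95 to 104 and 76 to 85 bases before the start, which do not overlap, and B2m held 1, 130 to 139 bases before it. Of the 28 interferon-response genes tested that have an entry in the promoter table, 12 held the motif on either strand in this window (42.9%), as did 2 of 14 class I genes (14.3%) and 1 of 6 class II genes (16.7%), against 3.46% of all 27025 genes of the table and 2.98% of the 9495 entries among genes tested. A match describes the letters and is not a measured binding site, and the windows of Oasl2 and Ifitm3 held none.

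Genes of cardiac load and matrix behaved otherwise: their differences were small beside their spread, and they changed sign with the choice of arrays. Hypertrophy and fetal-program genes had 0 of 18 measured members at an unadjusted p under 0.05 (12.1% over all genes) and a median of 0.15. That median was 1.19 without month 1 samples 2 to 4 and -0.38 without samples 1 and 5. Myh7 differed by 0.36 ± 0.73 (adjusted p = 0.902). Nppb, the B-type natriuretic peptide, was at 4.21 and 3.74 in month 1 samples 1 and 5 and at 1.61, 0.24 and -1.49 in samples 2 to 4, against -0.11 to 4.30 in sham (-0.42 ± 0.81, adjusted p = 0.898). Nppa, the atrial peptide, was at 5.67, 5.35, 3.47, 0.61 and 5.18 against -1.12 to 6.24 (0.31 ± 1.01, adjusted p = 0.945). Acta1 was at 3.49, 0.32, 0.38, 0.76 and 3.35 against -0.04 to 4.41 (-0.32 ± 0.76), and Ankrd1, a stretch-responsive sarcomere protein, differed by -0.10 ± 0.45. Myh6, the adult alpha myosin, whose coding sequence is close to that of Myh7, differed by 0.20 ± 0.36, and by 0.01 as the mean over its probes. Within slide 1 the differences were 2.39 for Myh7 and 2.00 for Nppb, and within slide 3 they were 2.24 and 1.97, in each case with 1 month 1 array and with no adjusted p under 0.05.

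**Figure D3:**
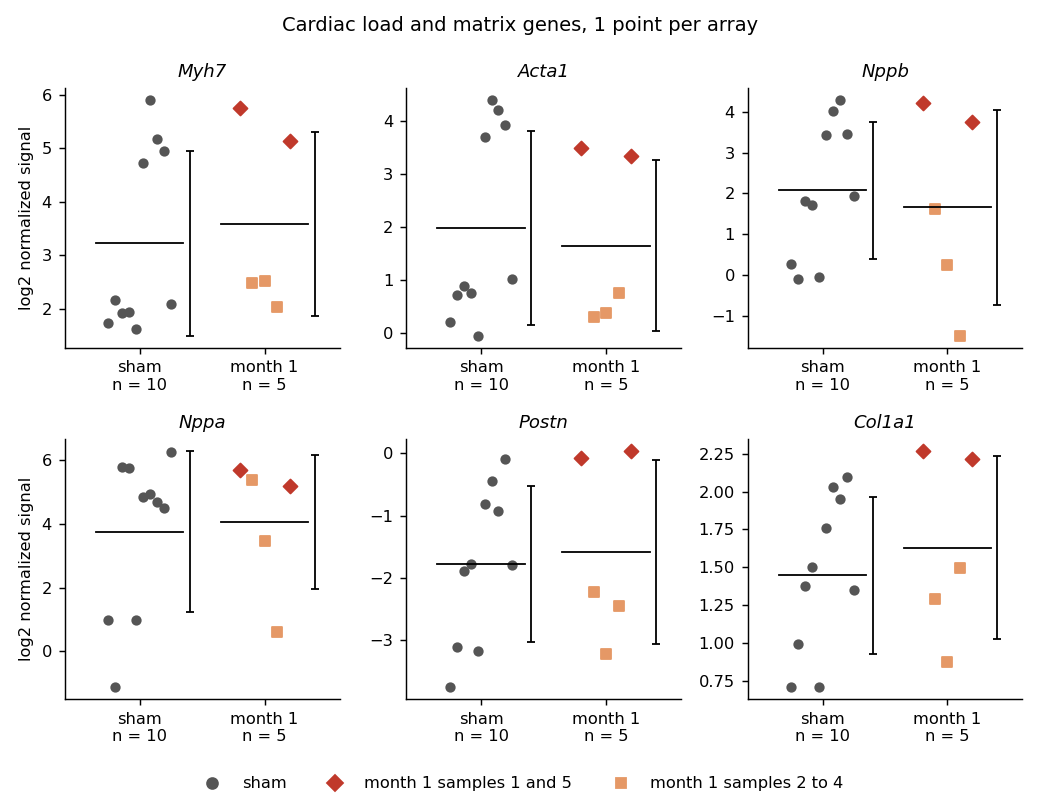
Log2 normalized signal of 6 load and matrix genes, 1 point per array; lines are group means and bars 1 SD (10 shams, 5 month 1 arrays). Month 1 samples 1 and 5 lie with the highest shams for Myh7, Acta1, Nppb and Postn and samples 2 to 4 lie lower, except for Nppa.

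Collagens and structural matrix genes were higher in 25 of 29 members (52.9% over all genes). An unadjusted p under 0.05 was found for 2 of 29 (6.97% over all genes). The median of 0.16 was 0.61 without month 1 samples 2 to 4 and -0.13 without samples 1 and 5. Col1a1 and Col3a1, the main fibrillar collagens, differed by 0.18 ± 0.34 and 0.15 ± 0.33. Postn, a matricellular protein of activated fibroblasts, was at -0.07 and 0.04 in samples 1 and 5 and at -2.23, -3.23 and -2.45 in samples 2 to 4, against -3.76 to -0.09 in sham (0.19 ± 0.58, adjusted p = 0.940). Timp1, an inhibitor of matrix proteases, differed by 0.48 ± 0.57 (adjusted p = 0.802). Other lists turned sign as well. Matricellular genes (-0.33 without samples 1 and 5, 0.76 without samples 2 to 4), cell cycle genes (-0.16 and 0.66), fibroblast markers (-0.12 and 0.46) and immediate early genes (-0.52 and 0.20) ran as the collagens did. Fatty acid oxidation genes (0.33 and -0.42), respiratory chain genes (0.23 and -0.23), citric acid cycle genes (0.21 and -0.21) and potassium channel genes (0.32 and -0.40) ran the opposite way.

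**Figure D4:**
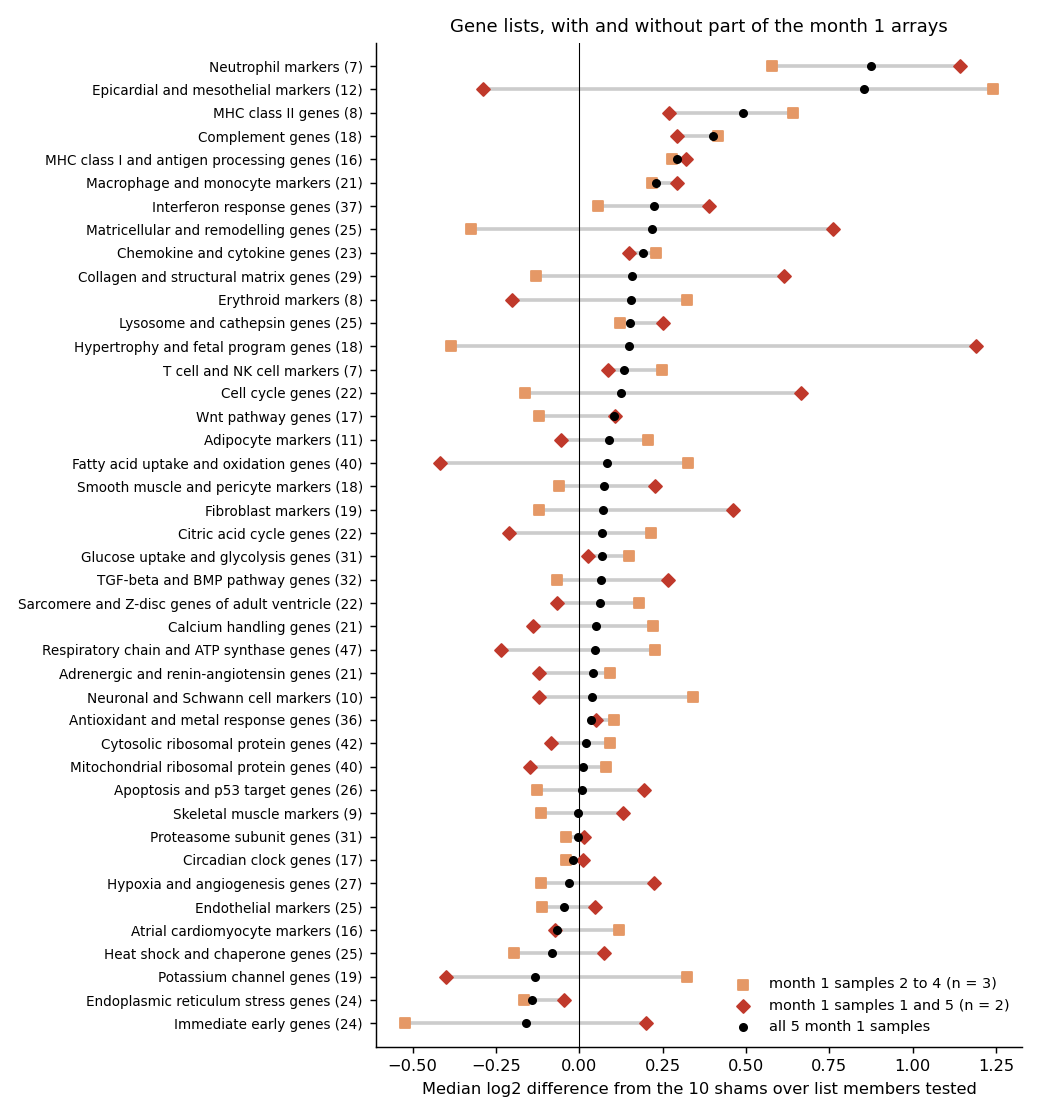
Median log2 difference between month 1 and the 10 shams for each gene list with at least 7 members tested (number in brackets), for all 5 month 1 arrays (black), for samples 2 to 4 (squares) and for samples 1 and 5 (diamonds). The 2 coloured points lie on the same side of 0 for the neutrophil, MHC, complement, macrophage and interferon lists and on opposite sides for the hypertrophy, matrix, fatty acid and potassium channel lists.

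Among genes of muscle, metabolism and stress, Sfrp1, a secreted Wnt inhibitor, was at -3.94, -4.34, -4.28, -4.16 and -4.16 against -5.07 to -4.51, with no overlap (0.64 ± 0.14, adjusted p = 0.106). Acta2, smooth muscle actin, was at 3.64, 3.00, 3.13, 2.74 and 3.55 against 2.08 to 3.08 (0.77 ± 0.21, adjusted p = 0.139). Smooth muscle and pericyte markers as a list had a median of 0.07. At an unadjusted p under 0.05, 3 of 18 were higher (6.97% over all genes). Jph2, the junctophilin that ties the T-tubule to the sarcoplasmic reticulum, was at -1.77, -1.58 and -1.60 in samples 2 to 4 and at -2.19 and -2.21 in samples 1 and 5, against -2.58 to -1.81 (0.47 ± 0.14, adjusted p = 0.161). Without samples 1 and 5 it passed (0.69, limma adjusted p = 0.0446). This drops the 2 lowest month 1 arrays and leaves only arrays of slide 2, which holds no sham, so the pass is no support. With slide as a block the difference was 0.24. Kcnj11, the pore of the cardiac ATP-sensitive potassium channel, differed by 0.45 ± 0.17 (adjusted p = 0.261), with Sham 6 0.94 below the next sham, and its second probe gave 1.10. In fuel use, Cpt1a, which admits fatty acids into mitochondria, differed by 0.32 ± 0.10 (adjusted p = 0.174) but by 0.04 on a second probe, the uncoupling protein Ucp2 by 0.62 ± 0.24 (adjusted p = 0.272) and Pfkl, a phosphofructokinase of glycolysis, by 0.41 ± 0.14 (adjusted p = 0.217). Ndrg1, a hypoxia-responsive gene, had all month 1 arrays above all shams with a gap of under 0.01 (0.29 ± 0.09, adjusted p = 0.184). Of stress genes, Hmox1, heme oxygenase 1, was at -1.85, -1.86, -1.86, -1.85 and -1.97 against -2.72 to -1.82 (0.41 ± 0.14, adjusted p = 0.216), although its other probe gave -0.19, and the cell cycle inhibitor Cdkn1a differed by 0.37 ± 0.26 (adjusted p = 0.596).

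Endoplasmic reticulum stress genes were lower in 19 of 24 measured members (5850 of 12433 over all genes). At an unadjusted p under 0.05 were 2 of 24, beside 5.16% of all genes. Their median of -0.14 kept its sign in 39 of 39 settings. It was close to 0 in some, at -0.05 without month 1 samples 2 to 4 and -0.0048 within slide 3. Atf4, a transcription factor of that response, differed by -0.27 ± 0.11 (adjusted p = 0.296), but the mean over its 2 probes gave 0.00064 and its other probe 0.27. Heat shock genes were lower in 18 of 25 members, 4 of 25 at an unadjusted p under 0.05 (5.16% over all genes). Their median of -0.08 turned to 0.02 with slide as a block, 0.07 within slide 1, 0.13 within slide 3 and 0.08 without month 1 samples 2 to 4. Dnajb1 and Dnaja1, co-chaperones of Hsp70, were at 1.13, 0.33, 0.35, 0.87 and 1.22 and at 1.80, 0.78, 0.78, 1.25 and 1.67, so that samples 2 and 3 were lowest and samples 1 and 5 within the shams' range. They differed by -0.52 ± 0.18 (adjusted p = 0.237) and -0.41 ± 0.15 (adjusted p = 0.240), and by -0.13 and 0.07 without samples 2 to 4. Mitochondrial ribosomal protein genes had a median of 0.01. At an unadjusted p under 0.05, 9 of 40 were lower (5.16% over all genes) and 1 of 40 higher (6.97%). Mrps7 and Mrps16, of the small subunit, differed by -0.23 ± 0.07 (adjusted p = 0.183) and -0.24 ± 0.08 (adjusted p = 0.235), and the other probe of Mrps7 gave 0.06.

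Clock genes had a median of -0.02. At an unadjusted p under 0.05, 2 of 17 were higher (6.97% over all genes) and 2 of 17 lower (5.16%). Nr1d1, the clock repressor Rev-erb alpha, was at -1.59, -1.31, -1.32, -1.73 and -1.72 in month 1 against -2.45 to -1.59 in sham (0.66 ± 0.13, adjusted p = 0.0651). All shams but Sham 8 (at -1.59) and Sham 6 (at -1.88) lay under -2. Dbp, an output factor of the clock, differed by 0.43 ± 0.17 (adjusted p = 0.282). The hour of tissue collection is not given in the sources used here, and its part was not tested.

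Markers of other cell types moved beside these values. Ventricular sarcomere genes had a list median of 0.06. Of them, Myh6 was at 4.87 or above in all arrays of both groups, but it is also on the list of atrial markers and does not mark ventricle alone. Epicardial and mesothelial markers were higher in 11 of 12 measured members (52.9% over all genes), with a median of 0.85. At an unadjusted p under 0.05 were 2 of 12 (6.97% over all genes). However, their mean deviation ranged from -1.81 to 0.90 in sham and from -0.21 to 1.32 in month 1. The median was -0.29 without samples 2 to 4 and 1.24 without samples 1 and 5. Krt8, a keratin of such lining cells, was at -2.96 in month 1 sample 4 and -5.30 to -4.69 in the others. C3, listed as a complement gene, is also one of these markers. Atrial markers had a median of -0.07 and a mean deviation of 1.83, 1.84 and 1.98 in Sham 3, 4 and 10, 1.17 in month 1 sample 2 and 0.56 or less in the other month 1 arrays. Myl7 differed by 2.96 ± 1.81 (adjusted p = 0.529). Without Sham 3, 4 and 10 it differed by 5.85 (limma adjusted p = 0.0169). Those shams were set apart by their high Myl7, so this pass follows from the choice and is no support. Of 11 platelet markers 6 passed the filter, with a median of 0.81 and 0 of 6 at an unadjusted p under 0.05 (12.1% over all genes). Gp9, a subunit of the platelet receptor for von Willebrand factor, was at -0.18 in month 1 sample 3 and -4.84 in sample 2. Endothelial markers had a median of -0.05. At an unadjusted p under 0.05, 3 of 25 were lower (5.16% over all genes) and 1 of 25 higher (6.97%). Flt1, a receptor for VEGF, and Egfl7, a secreted endothelial protein, differed by -0.28 ± 0.09 (adjusted p = 0.183) and -0.38 ± 0.13 (adjusted p = 0.237). The part of these cell types in the results above was not tested.

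Months 2 and 3 of PSPI were read against the same 10 shams, so their values share that group with month 1. At month 2, 1794 genes passed against sham (14.4%), and at month 3, 4839 (38.9%). The test of the difference between months called 1 gene between months 2 and 1 (0.00804%) and 3546 between months 3 and 1 (28.5%), 1475 higher and 2071 lower at month 3. Slide 2 held 4 of the 5 month 2 arrays and slide 3 held 3 of the 4 month 3 arrays, so time and slide are in part confounded. Ccl8 differed from sham by 1.47 ± 0.26 at month 1, 2.37 ± 0.26 at month 2 and 1.82 ± 0.28 at month 3, and S100a8 by 1.87 ± 0.43, 2.88 ± 0.43 and 2.86 ± 0.47. Neither differed between months 2 and 1 (limma adjusted p = 0.265 and 0.399) or between months 3 and 1 (0.422 and 0.169) past the threshold. Ifit1 was higher at month 3 than at month 1 by 1.68 ± 0.26 (adjusted p = 9.9e-05), B2m by 0.51 ± 0.13 (adjusted p = 0.00654) and Ifitm3 by 0.43 ± 0.12 (adjusted p = 0.0118). Of the class II genes, H2-Aa stood at 0.71, 0.03 and 0.02 from sham at months 1, 2 and 3 (month 3 against month 1, adjusted p = 0.0954), whereas Cd74 stood at 0.62, 0.03 and 0.64 (adjusted p = 0.963). Cox10 and Ttc30a2 were lower at month 3 than at month 1, by -0.90 ± 0.15 (adjusted p = 0.000178) and -0.99 ± 0.15 (adjusted p = 6.26e-05), as did Nr1d1 (-0.46 ± 0.16, adjusted p = 0.0350) and Dbp (-1.14 ± 0.20, adjusted p = 0.000363). The load genes did not pass between months: Nppb was higher by 2.38 ± 0.94 at month 2 than at month 1 (adjusted p = 0.297) and Myh7 by 1.65 ± 0.84 (adjusted p = 0.409).

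**Figure D5:**
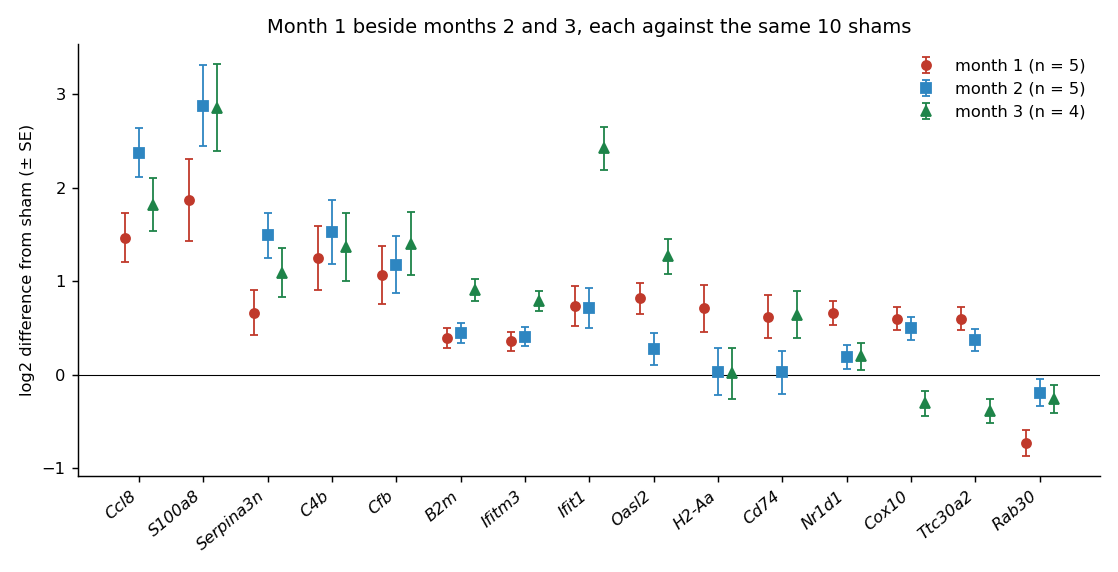
Log2 difference from the 10 shams, with the standard error of the limma fit, for 15 genes at 1, 2 and 3 months of PSPI (5, 5 and 4 arrays). Ccl8, S100a8 and C4b lie above 0 at all 3 months, H2-Aa lies at 0.71 at month 1 and near 0 later, and Cox10 and Ttc30a2 lie above 0 at months 1 and 2 and below 0 at month 3.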

How the data were processed

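Per the file headers, the scans went through Agilent Feature Extraction, version 10.7.3.1. The deposited intensity used here is its processed signal, already corrected for background but not set to a common scale across arrays. A further deposited table, with all samples in it, equals the net signal to within 0.001 for 62976 of 62976 spots and served as an alternative. Controls were dropped, as were the 143 to 290 outlier spots of each array, and replicate spots of a probe were averaged. Log2 values were scaled to each array's 75th percentile over 16946 probes well above background on all 24 arrays. A probe was kept if all arrays of any 1 group had it well above background (21040 of 55681), and each of 12433 genes was read from its brightest kept probe. Names came from RefSeq accessions for 26576 probes, from current or older symbols for 2607 and 492, and from the file alone for 1245; 24761 had none. Differences were fitted with limma 3.58.1 in R 4.3.3 as 4 group means, month 1 minus sham, without covariates. The fit was tested on simulated data.

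Genes were named by a rule: the smallest p in each direction, the widest gaps between groups, up to 4 members of each list by p, and a set of load and inflammation genes. Members and lists were chosen with earlier results of these data known. Alternatives changed the scaling, background, filter, probe choice, variance model, arrays in the fit, slide, pairing, probe GC and threshold. Probe positions are those the files give for build mm9; exon and UTR annotation was not used here. The replicate numbers did not pair sham and month 1 samples (correlations of their deviations -0.21, 0.13, 0.04, 0.03 and -0.35).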

Additional observations from a re-analysis of the deposited data

Results flagged for a closer look

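In 12 of 144 groups of arrays tested, 1 array lay far from the others by Dixon's ratio (its gap to the nearest array over the group's range); chance gives about 1 in 20. Among shams these were Sham 10, lowest for S100a9 (ratio 0.524), Sham 1, lowest for Icam1 (0.469), Sham 9, lowest for Psmb8 (0.546), Sham 5, lowest for Tapbp (0.559), Sham 6, lowest for Kcnj11 (0.696), and Sham 8, highest for H2-Aa (0.585) and Jph2 (0.542). Among month 1 arrays, sample 4 was highest for Serpina3n (0.782) and Krt8 (0.739), sample 1 highest for Ndrg1 (0.770), and sample 5 lowest for Hmox1 (0.950) and Ucp2 (0.733). The Hmox1 gap was only 0.11, since the other 4 arrays lay within 0.01 of each other.

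The difference between months 3 and 1 passed (limma adjusted p under 0.05) for 22 of 72 named genes (30.6%, beside 28.5% of all genes tested), and that between months 2 and 1 for 0. Higher at month 3 were Ifit1 by 1.68, H2-T23 by 0.705, H2-D1 by 0.607, B2m by 0.506, Ifitm3 by 0.427 and Zbp1 by 0.971, and so were Cdkn1a (1.55), Sfrp1 (0.53), Egfl7 (0.520), Flt1 (0.492), Rab30 (0.471) and Ndrg1 (0.325). Lower at month 3 were Myl7 (-6.59), Gp9 (-2.04), Dbp (-1.14), Ttc30a2 (-0.988), Cox10 (-0.904), Dnajb1 (-0.724), Dnaja1 (-0.483), Nr1d1 (-0.463), C1s1 (-0.415) and Grina (-0.305). Slide and month were in part confounded, and their parts cannot be told apart.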

How the results depend on the processing

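The count of genes past the limma threshold, 0 as reported, was 1 with normexp background, 1 with the deposited table, 2 with probes well above background on all arrays, 4 with only the 15 arrays, 565 with array weights, 86 within slide 1, 1 within slide 3, 59 without month 1 samples 1 and 5 and 55 without Sham 3, 4 and 10. It was 21 at an adjusted p of 0.10 and 326 at 0.20, and 0 to 42 with each array left out in turn (42 without Sham 8). The unadjusted split was 647 higher and 785 lower after quantile normalization and 731 and 799 with the GC correction. With the replicate number as a block, over 10 arrays, 1 gene passed, against 110 in the same arrays with no replicate block; Ankrd1 (0.58), Nppb (0.93) and Acta1 (1.15) turned positive in both. Lists with a median above 0 numbered 27 to 39 of 47 over all settings.

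Of 72 named genes, 56 kept their direction in all settings. The others turned as follows. Array weights gave Col1a1 -0.00396, Postn -0.32 and Nppa -0.58. Averaging close arrays gave Col1a1 -0.00495, Postn -0.25 and Myh7 -0.40. The mean over probes gave Atf4 0.00064, and the probe with the largest spread Hmox1 -0.19, Mrps7 0.061 and Atf4 0.27. Slide as a block gave Acta1 0.51, Ankrd1 0.65 and Nppb 0.90. Within slide 1, Ccl5 was -0.020, Myh6 -0.041, Egfl7 0.0036, Dnaja1 0.13, Ankrd1 1.34, Acta1 1.36 and Nppb 2.00; within slide 3, Myh6 was -0.57, Dnaja1 0.0090, Atf4 0.062, Ankrd1 1.34, Acta1 1.71 and Nppb 1.97. Without Sham 3, 4 and 10 Myh7 was -0.17. Without month 1 samples 1 and 5, Col3a1 was -0.12, Col1a1 -0.23, Timp1 -0.33, Nppa -0.60, Postn -0.86 and Myh7 -0.87; without samples 2 to 4, Myh6 was -0.36, Dnaja1 0.067, Ankrd1 1.24, Acta1 1.44 and Nppb 1.90. With 1 array left out, Nppa ranged from -0.23 to 1.17, Nppb from -1.05 to 0.37, Myh7 from -0.18 to 0.75, Myh6 from -0.022 to 0.44, Acta1 from -0.78 to 0.011, Ankrd1 from -0.49 to 0.28 and Postn from -0.22 to 0.60. The cause was not tested. Alternatives on the dark corner and probe GC were chosen after seeing the data. Genes near background, such as Il2ra, Zbp1, S100a8 and Ifit1, are limited by signal.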
